A study of Mus musculus with 6 samples.

Results

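This account follows 33 genes of cardiac macrophages and other myeloid cells through hearts of mice lacking the microRNA gene miR-1-2. They were chosen by gene symbol, with earlier results of these data known. They cover macrophage identity and uptake genes, complement C1q chains, Fc receptors and their adaptors, monocyte genes, and lysosomal and effector genes. General leukocyte genes and MHC class II genes are also on the list. All 33 had at least 1 probe set on the array, with 54 probe sets in all, and each gene was read from its brightest probe set. They are 33 of 18193 genes measured. Hearts of 3 mice without miR-1-2 were compared with those of 3 wild-type mice, all taken at postnatal day 10, by total RNA on 6 Affymetrix expression arrays. Both groups had the same age and no treatment is named in the labels. The sources used here do not give the strain, the litters, the design of the knockout allele or the cells in which it acts. Values are log2 RMA values (robust multi-array average), a scale on which 1 unit is a doubling of the signal, and differences are knockout minus wild type.

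Macrophages settle in the heart before birth, lie between the muscle cells, and clear debris and dying cells. They live on signals through the receptor CSF1R and carry scavenger and uptake receptors such as CD206, CD163 and the folate receptor beta. Monocytes reach the heart from blood and are marked by the chemokine receptor CCR2. The factor PU.1, encoded by Spi1, directs the transcription of many of these genes. miR-1 is a microRNA of heart and skeletal muscle, and more than 1 gene encodes it, miR-1-2 among them.

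Of the 33 genes, 29 were lower on average in knockout hearts, against 49.8% of all genes, and 0 passed the test. As the list was chosen with earlier results of these data known, its shares beside all genes only describe it. The median difference was -0.17 on the log2 scale, against 0.00048 over all genes. The largest differences belonged to Cd163 and Mrc1, receptors of resident macrophages, and F13a1, a coagulation factor gene, in the order Cd163, F13a1 and Mrc1 at -0.46, -0.46 and -0.44, which are 1.38-fold, 1.37-fold and 1.36-fold lower levels. The genes that were higher on average were Mpeg1, Cd74, H2-Aa and Itgam, by at most 0.098. In whole heart tissue, fewer cells of a type and less RNA per cell cannot be told apart.

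With limma and Benjamini-Hochberg adjustment over all genes, 0 of the 33 genes and 0 of 18193 genes (0.00%) had an adjusted p under 0.05. With the replicate number of the titles as a block, again 0 of the 33 passed, beside 13 of all genes (0.0715%). At an unadjusted p under 0.05 and lower in knockout stood 9 of the 33, where 1.91% of all genes did, and 13 with the block, where 3.00% did. No member was higher at that level in either fit, where 2.19% of all genes were without the block and 4.29% with it. The count of 9 was 4 without wild-type replicate 1 and 4 without knockout replicate 3. It was 16 without wild-type replicate 2 and 16 without knockout replicate 1. The share of all genes at this level in these smaller fits is not given here. These 4 counts thus do not tell whether only the members moved. For 11 of the 33 every knockout array lay below every wild-type array, against 4.28% of all genes. In 20 of the 33 the knockout array was lower than the wild-type array of the same number in all 3 pairs, against 13.1% of all genes. The titles do not state what a number marks, so these pairs and the block go by number only. After subtraction of group means, numbers 2 and 3 correlated more across genes when crossed (0.35 and 0.30) than within a number (0.18 and 0.13). Over the 33 genes alone, arrays of the same number correlated at 0.12, -0.14 and 0.10 for numbers 1, 2 and 3.

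**Figure D1:**
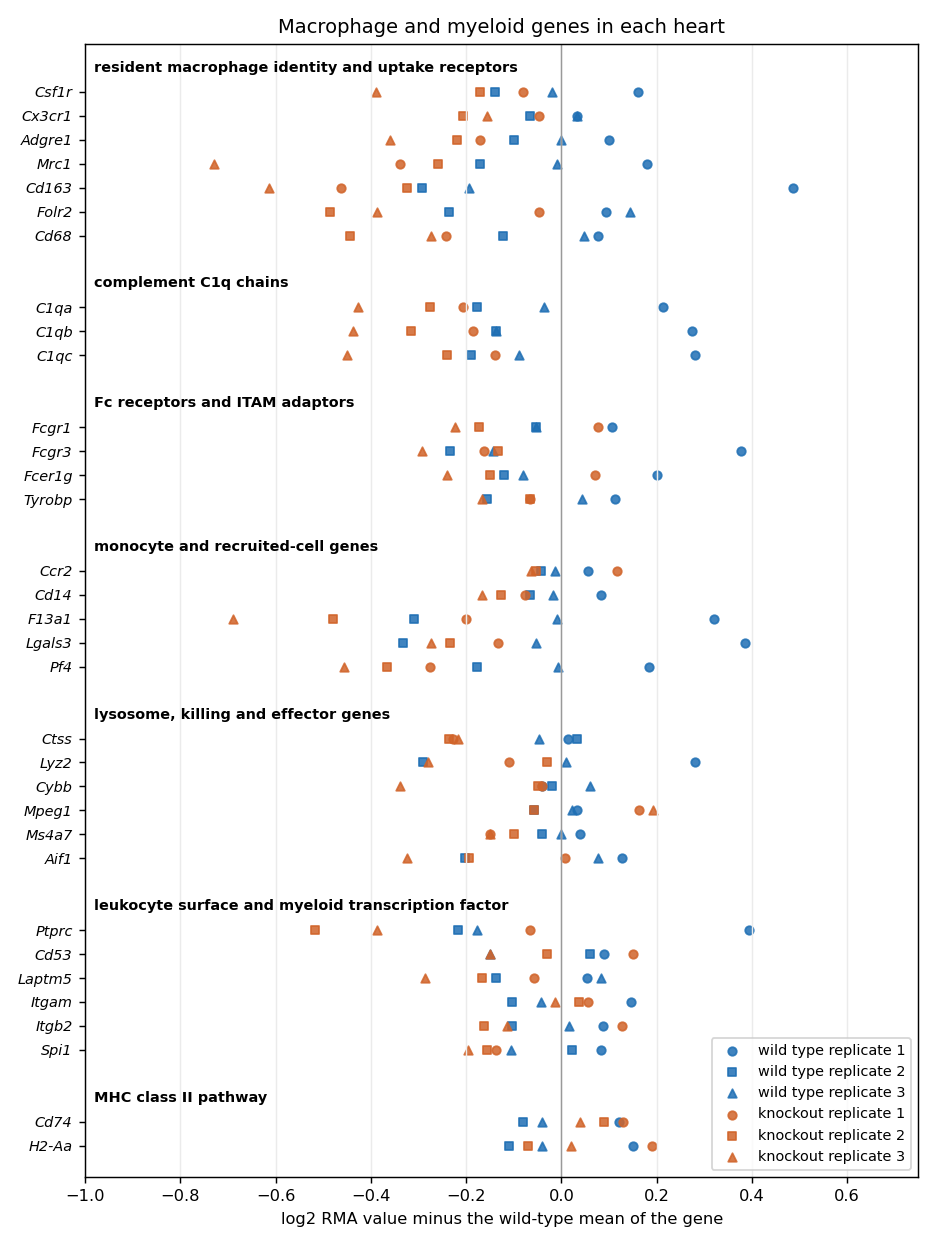
Each row is 1 of the 33 genes, grouped by role, and each point is 1 heart: its log2 RMA value minus the wild-type mean of that gene, in blue for wild type and orange for knockout, with the marker shape giving the replicate number. Knockout points lie to the left of all wild-type points for 11 genes, among them Mrc1, Cd163, Cd68 and Pf4, and wild-type replicate 1 is the rightmost point in 23 of 33 rows.

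Some differences between the arrays are not explained by genotype. Xist, which coats the inactive X in females, lay between 11.91 and 12.19 in the wild-type arrays and knockout replicate 2 and at 7.55 and 7.57 in knockout replicates 1 and 3, and the Y-linked gene Eif2s3y was at 7.63 and 8.35 in those same arrays and at most 3.16 elsewhere, so the sexes were not balanced between the genotypes. Ucp1, which makes heat in brown fat, stood at 9.45 and 10.39 in the first replicates of wild type and knockout and at most 6.68 in the other arrays. Rag1, a recombinase of immature lymphocytes in the thymus, was at 5.90 in wild-type replicate 1, 4.52 in knockout replicate 1 and at most 3.96 elsewhere. Myl2, a cardiomyocyte marker, lay between 14.39 and 14.52 in all 6 arrays, near the highest value measured, 14.59. Cardiac muscle was thus in every array, but a gene so near the top does not show how much other tissue came with it. Array medians ran from 6.03 to 6.11.

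The genes grouped for macrophage identity and uptake, not all of them particular to resident cells, were lower in knockout for 7 of 7, with a median of -0.31. Mrc1, the mannose receptor CD206, stood at 7.83, 7.48 and 7.64 in wild-type replicates 1 to 3 and at 7.31, 7.39 and 6.92 in knockout replicates 1 to 3. No knockout heart reached the lowest wild-type heart, and knockout replicate 3 was lowest by a clear margin. The group means were 7.65 ± 0.18 and 7.21 ± 0.25 (SD, n = 3 each), a difference of -0.44 with a 95% interval from -0.76 to -0.13 (limma adjusted p = 1.00, and 0.370 with the block). Without wild-type replicate 1 it was -0.35, without knockout replicate 3 it was -0.30, and with the Xist level as a covariate it was -0.27. Cd163, the scavenger receptor for haemoglobin bound to haptoglobin, stood at 5.72, 4.94 and 5.04 in wild type and at 4.77, 4.91 and 4.62 in knockout. The groups did not overlap, but wild-type replicate 2 and knockout replicate 2 were only 0.02 apart, and wild-type replicate 1 stood well above all other arrays. The Cd163 difference was -0.46 with a standard error of 0.189, and -0.22 without wild-type replicate 1 (adjusted p = 0.528 with the block).

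Cd68, a glycoprotein of macrophage lysosomes, had the smallest unadjusted p of the 33 genes. It stood at 6.38, 6.18 and 6.35 in wild type and at 6.06, 5.86 and 6.03 in knockout. The pairs differed by -0.32, -0.32 and -0.33, nearly alike in size. The difference was -0.32, and -0.29 when wild-type replicate 1 was left out (limma adjusted p = 1.00, or 0.247 in the blocked fit). Adgre1, an adhesion receptor widely used as a macrophage marker, stood at 7.24, 7.04 and 7.14 in wild type and at 6.97, 6.92 and 6.78 in knockout, a difference of -0.25 with no overlap of the groups. Folr2, the folate receptor beta, stood at 7.32, 6.99 and 7.37 in wild type and at 7.18, 6.74 and 6.84 in knockout. Here knockout replicate 1 lay above wild-type replicate 2, and the difference was -0.31 (adjusted p = 0.473 with the block).

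Csf1r, the receptor on which macrophage survival depends, was at 9.23 ± 0.15 in wild type and 9.02 ± 0.16 in knockout, a difference of -0.21 with overlapping groups. That difference was -0.13 without wild-type replicate 1 and -0.12 without knockout replicate 3. Its other probe sets differed by -0.076 and -0.15. Cx3cr1, the fractalkine receptor, was at 6.06 ± 0.06 and 5.93 ± 0.08, a difference of -0.13.

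The chains of C1q, which starts the classical complement cascade and is made largely by tissue macrophages, were lower for 3 of 3 genes. C1qa stood at 8.27, 7.88 and 8.02 in wild type and at 7.85, 7.78 and 7.63 in knockout. C1qb stood at 8.65, 8.24 and 8.24 against 8.19, 8.06 and 7.94, and C1qc at 8.16, 7.69 and 7.79 against 7.74, 7.64 and 7.43. All 3 chains were highest in wild-type replicate 1 and lowest in knockout replicate 3, and only C1qc overlapped between the groups, through knockout replicate 1 and wild-type replicate 2. The differences were -0.31, -0.31 and -0.28 with standard errors of 0.109, 0.122 and 0.133. Without wild-type replicate 1 they were -0.20, -0.18 and -0.14. The adjusted p-values with the block were 0.434, 0.370 and 0.539. The other C1qb probe sets differed by -0.26 and -0.30.

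Fc receptors bind antibody on the cell surface, and they signal through small adaptors that carry activation motifs. All 4 genes of this group were lower on average, with overlapping groups in each case and a median of -0.11. Fcgr1, the high-affinity receptor for IgG, differed by -0.11, and Fcgr3, a low-affinity receptor, by -0.20. Without wild-type replicate 1, which stood at 7.48 for Fcgr3 against at most 6.97 in the other 5 arrays, the Fcgr3 difference was -0.011. The adaptors Fcer1g and Tyrobp (DAP12) differed by -0.11 and -0.10, with 95% intervals from -0.36 to 0.15 and from -0.30 to 0.10. Without wild-type replicate 1 they differed by -0.0058 and -0.045, and Fcgr1 by -0.054.

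The 5 monocyte and secreted-factor genes were all lower on average, Ccr2 by a trace. Ccr2, the receptor that draws monocytes out of blood and bone marrow, was at 7.21 ± 0.05 in wild type and 7.21 ± 0.10 in knockout, with a 95% interval of the difference from -0.17 to 0.17. Its 3 dimmer probe sets differed by -0.014, -0.046 and -0.060. Their means were 4.97, 4.03 and 3.68, toward the floor of the scale, so the Ccr2 level rests on 1 probe set. F13a1, the A subunit of coagulation factor XIII, is made by macrophages and also by platelet precursors, and stood at 8.50, 7.87 and 8.17 in wild type and at 7.98, 7.70 and 7.49 in knockout. Each knockout heart was below the wild-type heart of its number, with pair differences of -0.52, -0.17 and -0.68, while knockout replicate 1 lay above wild-type replicate 2. The F13a1 difference was -0.46 (95% interval -0.84 to -0.07, adjusted p = 0.256 with the block) and -0.30 without wild-type replicate 1. Pf4, a platelet chemokine that resident macrophages also make, stood at 8.90, 8.54 and 8.71 against 8.44, 8.35 and 8.26. The groups did not overlap, and the difference was -0.37 ± 0.102 (SE, adjusted p = 0.261 with the block). Cd14, the co-receptor for lipopolysaccharide, differed by -0.13 without overlap, at 6.67 ± 0.08 and 6.54 ± 0.04. Lgals3, the lectin galectin-3, differed by -0.21, and by -0.019 without wild-type replicate 1.

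Among lysosomal and effector genes, 5 of 6 were lower on average. Ctss, the protease cathepsin S that trims the invariant chain of MHC class II, varied least within its groups. It stood at 8.04, 8.06 and 7.98 in wild type and at 7.80, 7.79 and 7.81 in knockout. Every knockout heart was below every wild-type heart, and the spread within knockout was 0.01 (SD). The Ctss difference was -0.23 (95% interval -0.37 to -0.08), which is a 1.17-fold lower level (adjusted p = 0.532 with the block). Minus wild-type replicate 1, Ctss differed by -0.22. Ms4a7, a membrane protein of tissue macrophages, differed by -0.13 without overlap, at 7.16 ± 0.04 and 7.03 ± 0.03, while its dim second probe set, at a mean of 3.46, differed by 0.057. Lyz2, lysozyme, differed by -0.14 and Cybb, the catalytic subunit of the phagocyte oxidase, by -0.14. Wild-type replicate 2 had the lowest Lyz2 of the 6 arrays, and without wild-type replicate 1 the Lyz2 difference was -0.0037. Cybb lies on the X chromosome, and knockout replicate 3 alone, at 5.49, stood apart from the other arrays, which lay between 5.78 and 5.89. The Cybb difference was -0.043 without that array. Aif1, the calcium-binding protein IBA1, differed by -0.17.

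Mpeg1, the pore-forming protein perforin-2, had the largest positive difference. It stood at 6.33, 6.24 and 6.32 in wild type and at 6.46, 6.24 and 6.49 in knockout. The high arrays were the knockout replicates 1 and 3, which are those with low Xist, and the difference of 0.098 was -0.055 with the Xist level as a covariate.

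General leukocyte genes were lower on average in 5 of 6 cases. Ptprc, the phosphatase CD45 found on nearly all white blood cells, was at 6.67 ± 0.34 in wild type and 6.34 ± 0.23 in knockout. The Ptprc difference was -0.32, and -0.13 without wild-type replicate 1. Its dim second probe set, at a mean of 3.77, differed by 0.051, and the mean of both by -0.14. Laptm5, a lysosomal membrane protein of blood cells, differed by -0.17, and its 4 other probe sets by -0.33 to -0.01. The integrin subunits Itgb2 and Itgam differed by -0.053 and 0.027, and the tetraspanin Cd53 by -0.0093. Their intervals ran from -0.27 to 0.16 for Itgb2, from -0.16 to 0.21 for Itgam and from -0.24 to 0.22 for Cd53. Spi1, which encodes PU.1, stood at 6.23, 6.17 and 6.04 in wild type and at 6.01, 5.99 and 5.95 in knockout, with no overlap, and the difference was -0.16 (95% interval -0.33 to 0.01, adjusted p = 0.690 with the block).

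**Figure D2:**
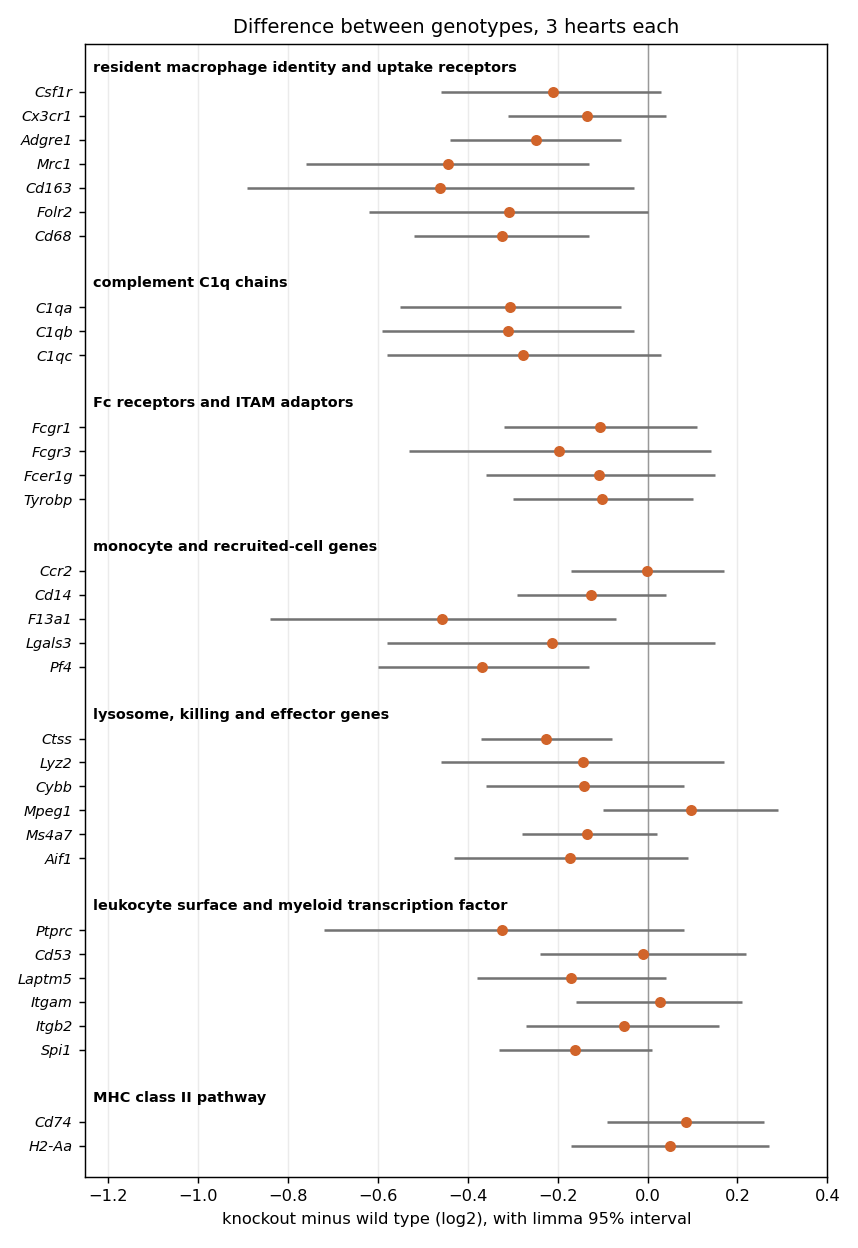
Each row is 1 gene, the point is the mean of 3 knockout hearts minus the mean of 3 wild-type hearts on the log2 scale, and the line is the 95% interval from limma without adjustment over genes. The intervals of Mrc1, Cd68, Pf4, Ctss, Adgre1, C1qa, C1qb, F13a1 and Cd163 lie below 0. Those of all other genes include 0, among them Csf1r, C1qc, Spi1, Ccr2 and the MHC class II genes.

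As Spi1, the gene of PU.1, is on the list, the promoters of the 33 genes were read for the core GAGGAA, which PU.1 and other ETS factors bind. A promoter here is the 300 bases from 250 before to 50 after an annotated start in RefSeq, build GRCm38.p6, and both strands were searched, so that TTCCTC marks a match on the reverse strand. Of the 33 genes, 25 had a promoter in the table, and 16 of these (64.0%) held the core in the first listed one, against 28.3% of the first listed promoters of all 27025 genes. The core is short and shared by a large family of factors, so a match describes the sequence and is not a bound site. The promoters of the 4 genes with the largest differences are shown in the direction of transcription, with the core in capitals.

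Mrc1, chr2:14229164-14229463, forward strand: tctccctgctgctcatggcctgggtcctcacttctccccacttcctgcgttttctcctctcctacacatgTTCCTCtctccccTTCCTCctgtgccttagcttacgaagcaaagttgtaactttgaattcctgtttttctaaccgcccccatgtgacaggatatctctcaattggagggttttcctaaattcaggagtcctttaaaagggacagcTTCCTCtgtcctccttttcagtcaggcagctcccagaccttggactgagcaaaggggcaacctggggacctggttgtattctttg
F13a1, chr13:37050195-37050494, reverse strand: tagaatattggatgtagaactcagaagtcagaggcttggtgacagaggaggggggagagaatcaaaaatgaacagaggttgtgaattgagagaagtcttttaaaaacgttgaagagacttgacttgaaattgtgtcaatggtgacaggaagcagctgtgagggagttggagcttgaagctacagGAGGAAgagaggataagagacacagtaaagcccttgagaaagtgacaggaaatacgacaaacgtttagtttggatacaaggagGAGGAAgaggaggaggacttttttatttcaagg
Pf4, chr5:90772185-90772484, forward strand: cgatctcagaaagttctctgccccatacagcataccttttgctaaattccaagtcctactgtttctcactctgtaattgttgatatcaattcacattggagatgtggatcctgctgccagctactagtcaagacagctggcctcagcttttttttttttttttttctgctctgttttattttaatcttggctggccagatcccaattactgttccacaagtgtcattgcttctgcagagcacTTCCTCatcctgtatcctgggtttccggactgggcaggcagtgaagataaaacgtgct
Cd163, chr6:124304401-124304700, forward strand: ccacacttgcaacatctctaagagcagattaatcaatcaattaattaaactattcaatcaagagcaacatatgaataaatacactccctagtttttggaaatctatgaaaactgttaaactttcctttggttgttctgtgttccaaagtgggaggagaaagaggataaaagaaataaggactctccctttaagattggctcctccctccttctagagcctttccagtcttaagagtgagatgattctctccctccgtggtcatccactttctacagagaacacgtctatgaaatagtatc

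Mrc1 held 3 matches, all on the reverse strand, F13a1 held 2 on the forward strand and Pf4 held 1 on the reverse strand, which begins at -8 relative to the start. Cd163, with the largest difference of the 33 genes, held 0 in this window. Among genes whose differences were near 0, the promoter of Cd53 held 2 matches and that of Ccr2 held 0. Csf1r, Adgre1, C1qa, Tyrobp, Cd14, Itgb2, Spi1 and Cd74 were not in the table.

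The MHC class II genes, which present antigen to T cells, were not among the genes lower in knockout. Cd74, the invariant chain, stood at 7.46, 7.26 and 7.30 in wild type and at 7.47, 7.43 and 7.38 in knockout. The groups overlapped through wild-type replicate 1, and the difference was 0.086 (95% interval -0.09 to 0.26). H2-Aa, an alpha chain of the class II molecule, stood at 7.23, 6.97 and 7.04 in wild type and at 7.27, 7.01 and 7.10 in knockout, a difference of 0.050, and it was -0.070 with the Xist level as a covariate. Of 4 other class II genes measured, 2 were lower and 2 higher. Ciita, the activator of class II transcription, differed by -0.10, H2-DMa by -0.033, H2-Eb1 by 0.018 and H2-Ab1 by 0.020.

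Wild-type replicate 1 and knockout replicate 3 were the extremes of the list. Wild-type replicate 1 was the highest of the 6 arrays for 23 of the 33 genes, against 16.7% of all genes, and knockout replicate 3 was the lowest for 21, against 17.2% of all genes. Summed on the linear scale, the 33 genes came to 6283, 5021 and 5461 in wild-type replicates 1 to 3 and to 5176, 4827 and 4467 in knockout replicates 1 to 3. Knockout replicate 1 thus lay above wild-type replicate 2 in the sum, and the other 2 knockout arrays lay below every wild-type array. The median difference over the 33 genes was -0.12 without wild-type replicate 1, -0.13 without knockout replicate 3 and -0.24 without wild-type replicate 2. With replicates 2 and 3 of each genotype only, it was -0.16, and 29 of 33 genes were again lower. Without wild-type replicate 1, 18 of the 33 differences were smaller by over 1.5 times or changed sign, as were 11 without knockout replicate 3. Among the 18 were Csf1r, Cd163, all C1q chains, all Fc receptors and adaptors, F13a1 and Ptprc, while Adgre1, Mrc1, Folr2, Cd68, Pf4, Ctss and Spi1 were in neither count. Pair by pair the median was -0.19, -0.054 and -0.21 for numbers 1, 2 and 3.

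Knockout replicate 2 is the knockout array with high Xist, like the wild-type arrays. In this array 24 of the 33 genes lay below every wild-type array, against 32.7% of all genes. Its median difference from the wild-type mean was -0.17 over the 33 genes and -7.8e-05 over all genes, from 1 array. That mean includes wild-type replicate 1, the array with the highest sum of the 33 genes. Against wild-type replicate 2 alone, also high in Xist, the median was -0.054. In the pairs of numbers 1 and 3, where the Xist levels differ, it was -0.19 and -0.21. The part of sex in these differences was not tested. With the Xist level as a covariate, 31 of the 33 genes were lower, against 50.2% of all genes, with a median of -0.17. Of these, 4 had an unadjusted p under 0.05, and 0 passed. The share of all genes at that unadjusted level in this fit is not given here. Knockout replicate 2 is the only knockout array at the wild-type Xist level, so that this fit leans on it.

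**Figure D3:**
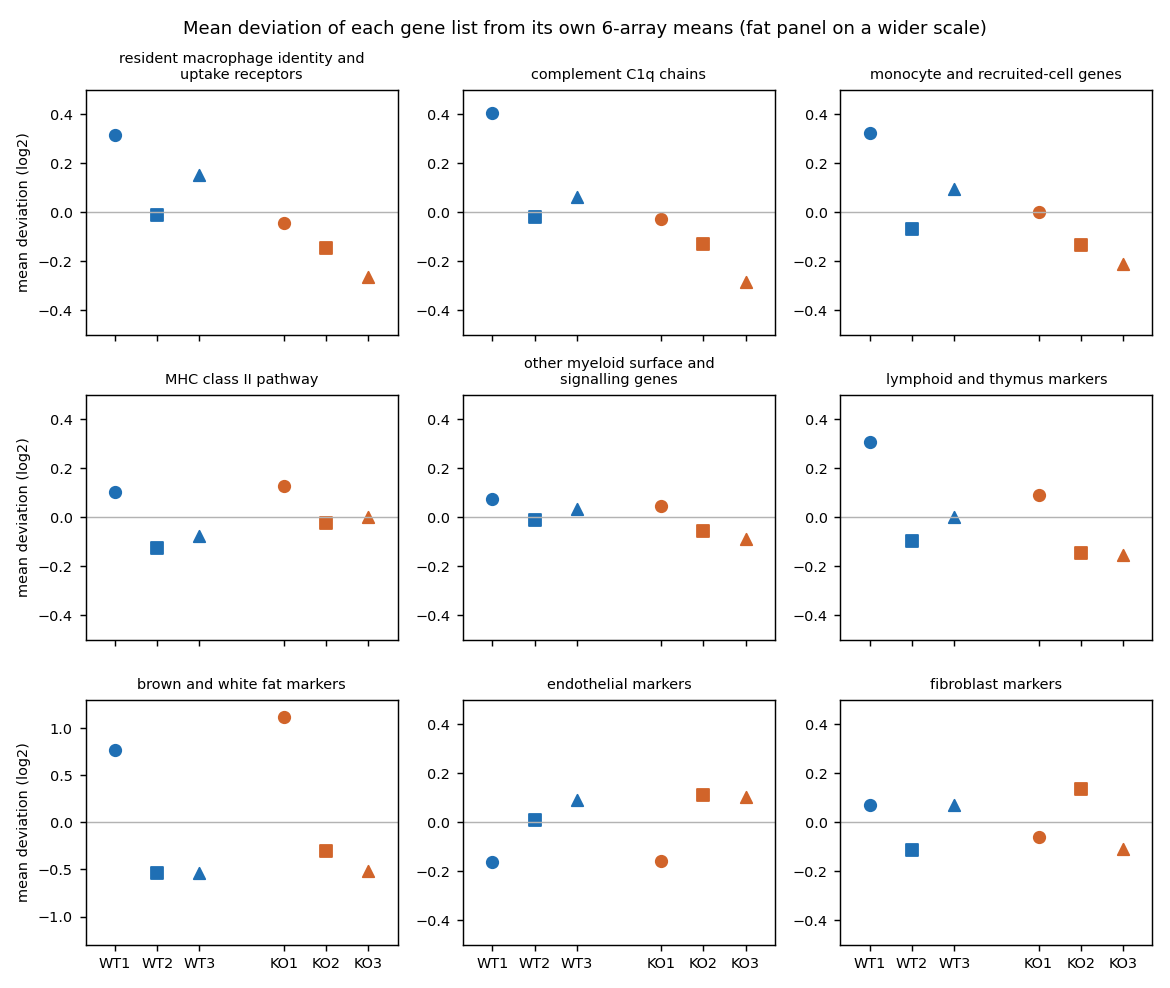
Each panel is a list of genes and each point 1 heart (WT, wild type in blue; KO, knockout in orange): the mean over the list of each gene's log2 value minus its own mean over the 6 arrays. The resident macrophage and C1q panels have all 3 knockout hearts below all wild-type hearts, by narrow margins. In these 2 panels wild-type replicate 2 lies at -0.01 and -0.019 and knockout replicate 1 at -0.046 and -0.03. Summed on the linear scale, the resident macrophage list overlaps, at 1148 in wild-type replicate 2 and 1156 in knockout replicate 1. The lymphoid and fat panels are highest in the first replicates of each genotype, and the fat panel has a wider scale.

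Markers of other cell types were set beside these genes. Lymphoid and thymus markers were lower in knockout for 12 of 14 genes, and their summed level ran from 862 to 1062 in wild type and from 817 to 946 in knockout, highest in replicate 1 of each genotype. The fat markers, at 7334 to 8666 in wild type and 7104 to 9466 in knockout, were highest in replicate 1 of each genotype, at 8666 and 9466. Neutrophil markers ran from 640 to 692 and from 622 to 694, and 5 of 11 were lower. Endothelial markers were lower in 2 of 7, fibroblast markers in 5 of 7, cardiomyocyte markers in 2 of 8, mast cell markers in 4 of 7 and erythroid markers in 2 of 4 measured genes. None of the genes on these lists passed over all genes, with or without the block. The part of thymus or fat tissue in the differences of the myeloid genes was not tested. Without the first replicates of both genotypes, which held the high Ucp1 and Rag1 values, Mrc1 differed by -0.40, F13a1 by -0.43, Folr2 by -0.39, Cd68 by -0.33 and Pf4 by -0.32. In the same arrays 5 of the 33 differences were smaller by over 1.5 times: Cd163 at -0.22, Fcgr3 at -0.028, Tyrobp at -0.062, Lgals3 at -0.059 and Lyz2 at -0.020.

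Other myeloid genes, taken from a list of surface and signalling genes of which 50 were measured, were lower in 36 and higher in 14, with a median of -0.080, and 0 passed. Of these, 6 had knockout arrays entirely below wild type and 0 entirely above, where 4.28% and 4.57% of all genes did. Lyve1, a hyaluronan receptor of resident macrophages and of lymphatic vessels, stood at 7.21, 6.93 and 7.08 in wild type and at 6.78, 6.84 and 6.47 in knockout, a difference of -0.38 (adjusted p = 0.396 with the block). Maf, a transcription factor of resident macrophages that other cells also express, was at 7.52 ± 0.09 in wild type and 7.10 ± 0.30 in knockout (SD, n = 3 each). Knockout replicate 2, at 7.43, was close to the lowest wild-type array, at 7.45, and knockout replicate 3 was lowest at 6.86, with a difference of -0.42 (adjusted p = 0.376 with the block). Fcgr2b, the inhibitory Fc receptor, differed by -0.21 and Ctsc, cathepsin C, by -0.21.

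Growth factors and chemokines for macrophages and monocytes were lower in 8 of 12 genes, with a median of -0.045, and 0 passed. Csf1, the ligand of CSF1R, stood at 7.76, 7.68 and 7.76 in wild type and at 7.69, 7.55 and 7.59 in knockout. The groups overlapped through knockout replicate 1 and wild-type replicate 2, and the difference was -0.12. Ccl7, a chemokine that binds CCR2, stood at 5.48, 5.52 and 5.50 in wild type and at 5.42, 5.34 and 5.30 in knockout, a difference of -0.14 without overlap. Ccl12 differed by -0.26 and Ccl8 by -0.12, both with overlapping groups. For Ccl12, wild-type replicate 3 stood at 6.45, against at most 6.04 in the other arrays. Csf2, the growth factor GM-CSF, was named after its values were seen, as the gene of this list with knockout arrays entirely above wild type, at 6.10 ± 0.06 and 6.21 ± 0.05, a difference of 0.11.

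**Figure D4:**
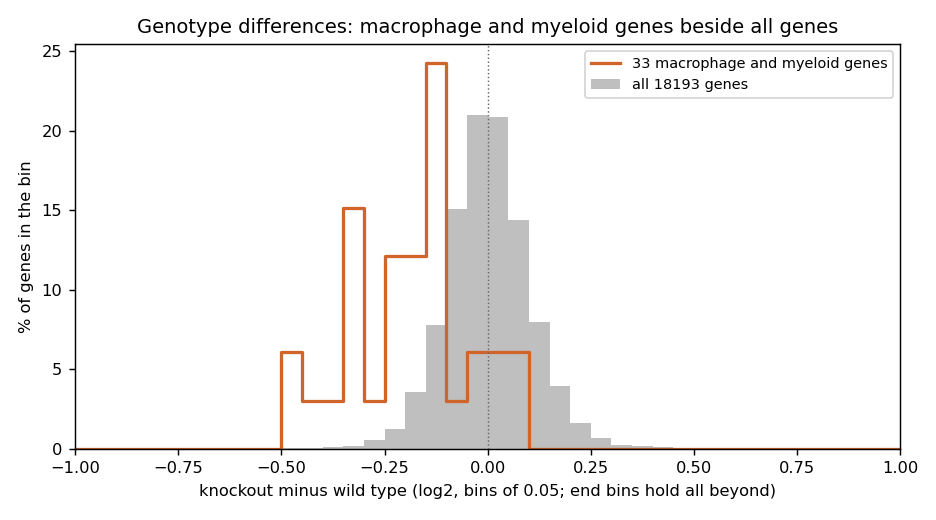
The grey bars give the share of all 18193 genes in each bin of the log2 difference (knockout minus wild type, bins of 0.05), and the orange line gives the same for the 33 macrophage and myeloid genes. The orange line is shifted to the left of the grey bars, with medians of -0.17 and 0.00048, and the members run from -0.46 to 0.098.

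Of the 33 genes, 11 had more than 1 probe set, and in 8 of these all probe sets differed in the same direction. The exceptions were H2-Aa, Ms4a7 and Ptprc. Of 21 dimmer probe sets, 17 were lower in knockout. Itgam, at a mean of 4.39, and Cd163 had means under 5, toward the floor of the scale, where RMA compresses differences. Csf1r, Cd14 and Cd74 lie on mouse chromosome 18, which also carries miR-1-2. They differed by -0.21, -0.13 and 0.086, and a part of DNA around the targeted gene in these values was not tested.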

How the data were processed

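Trizol was used to extract the RNA, per the labels' protocols. The authors deposited log2 values computed by RMA (affy package), per the series' design text, and GCOS 1.4 is named in the submitters' processing notes. RMA equalises the distributions of the arrays, so a change shared by most genes is removed. After 64 control probe sets were left out, 45037 remained, of which 34945 named 1 gene in the platform annotation. Symbols were updated by gene identifier through RefSeq (GRCm38.p6). The brightest probe set stood for each of 18193 genes.

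Genotypes were compared over all genes with limma 3.58.1 in R 4.3.3, with Benjamini-Hochberg adjustment and a threshold of 0.05. The fit without a block was run on simulated data with independent noise. The changes planted there were larger than any difference of the 33 genes, so that check does not cover differences of this size or the blocked fits. Arrays have no read depth, and 3 arrays per genotype limit the precision: standard errors of the 33 differences ran from 0.0651 to 0.189. No list was tested as a set. The 33 genes, the other lists and the motif were chosen with earlier results of these data known. Values by array are printed for the 12 genes with the smallest unadjusted p and the 3 with the largest positive difference. On the other myeloid lists up to 4 genes with the smallest p could be named, and on each cell type list the 2 brightest genes and the most variable one. Promoters were printed for at most 4 genes.

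Replicate numbers come from the titles, with no statement of what a number marks. After subtraction of group means, arrays of the same number correlated across genes at 0.54, 0.18 and 0.13 for numbers 1, 2 and 3, all above 0.1, so the numbers were treated as pairs in the fit with a replicate block. The crossed pairs of numbers 2 and 3 correlated at 0.35 and 0.30, and genes are not independent replicates. Alternatives were 15 planned fits, among them 6 that leave out 1 array each, and 1 added after the data were seen, with the first replicates as a batch.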

Additional observations from a re-analysis of the deposited data

How the results depend on the processing

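No member passed the threshold in any of the 16 alternatives, where the lowest adjusted p was 0.186 (limma, first replicates as a batch). Over all genes, 0 passed without a block, 13 with the replicate block, 15 with a batch term for the first replicates (an alternative chosen after seeing the data), 1 with replicates 2 and 3 only, 3 with probe sets averaged by gene and 3 with all probe sets adjusted together, and 0 to 4 when 1 array was left out (4 without knockout replicate 1, 2 without knockout replicate 2). The replicate block changed no call of a member. The count of members lower in knockout ran from 26 to 31 and their median from -0.24 to -0.12. The direction held for 27 members in every alternative that measured them (31 of 33 were measured without shared probe sets, and 31 with a mean of at least 5). Of the other 6, Cd53 was at 0.0090 and Ccr2 at 0.0013 after a further quantile normalization, and Mpeg1 at -0.055 and H2-Aa at -0.070 with the Xist level as a covariate. With 1 array left out, Cd53 ran from -0.091 to 0.063, Ccr2 from -0.056 to 0.029, Itgam from -0.024 to 0.10, H2-Aa from -0.023 to 0.12 and Itgb2 from -0.14 to 0.0017. The cause was not tested. Without knockout replicate 2, the genotypes also differ in the Xist level throughout. Signal over background limits Itgam and Cd163, whose means lie under 5.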
